A study of Mus musculus with 6 samples.

Results

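The CXC and CX3C chemokine ligands on the array were taken as 10 genes, *Cxcl1*, *Cxcl2*, *Cxcl5*, *Cxcl9*, *Cxcl10*, *Cxcl11*, *Cxcl12*, *Cxcl16*, *Cxcl17* and *Cx3cl1*. Every non-control spot whose annotation named one of these genes was kept, which gave 13 probes of the 55681 probes on the array. Of these, 9 probes for 7 genes (*Cxcl1*, *Cxcl10*, *Cxcl11*, *Cxcl12*, *Cxcl16*, *Cxcl17* and *Cx3cl1*) were well above background on all 6 arrays. *Cxcl5* was above background on 1 array of each line, and *Cxcl2* and both *Cxcl9* probes on none. In 1G11-SOD3 cells, *Cxcl12* was higher on both of its probes, *Cxcl16*, *Cxcl10* and *Cxcl17* were lower, and *Cxcl1* was lower on every array but missed the threshold. After an adjustment for place on the array, *Cxcl12* and *Cxcl16* still passed the threshold, *Cxcl10* and *Cxcl17* missed it, and *Cxcl1* passed it. *Cx3cl1* and *Cxcl11* showed no difference that passed the test.

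The 6 arrays carried RNA from 1G11 cells, an endothelial cell line labelled with the mouse strain C57BL/6NCrLBR. The 3 1G11-mock arrays came from mock-transfected cells, labelled as not overexpressing SOD3, and the 3 1G11-SOD3 arrays from transfectants that overexpress SOD3, the extracellular superoxide dismutase. For 6 h before RNA isolation both lines were incubated with N202.1A-conditioned medium, taken from a mouse mammary cancer line, so no array shows cells without that medium. The question was which transcripts differ between the transfectants. The arrays of a line were separate experiments with the same transfectants, and their p-values measure the spread between those experiments.

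Chemokines are small secreted proteins that direct leukocytes along a gradient and are named by the spacing of their first cysteines. CXC ligands that carry an ELR motif draw neutrophils through CXCR2, the interferon-inducible ligands CXCL9, CXCL10 and CXCL11 draw activated T and NK cells through CXCR3, and CXCL12 acts on CXCR4 and ACKR3. CXCL16 and CX3CL1 are made as transmembrane proteins that can hold cells on the vessel wall or be shed. In endothelial cells, inflammatory cytokines raise many of them through NF-κB and interferon-regulated factors.

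A probe is called higher or lower here at a change of over 2-fold and an adjusted p under 0.05 by limma, with Benjamini-Hochberg adjustment over all probes. Levels are log2 intensities after background correction and quantile normalization, and levels of different probes are not compared. *Sod3* itself was at 13.61, 12.66 and 9.86 on the 1G11-mock arrays and at 16.37, 16.30 and 16.26 on the 1G11-SOD3 arrays (log2 difference 4.27, SE 0.70, limma adjusted p = 0.0079). Between 34.2% and 43.8% of the non-control spots of an array were well above background, no spot was saturated, and the lowest signals above background lay between 7.56 and 8.17 on the log2 scale. Around the middle of the arrays the spots of many unrelated probes were brighter on the 1G11-SOD3 arrays. The *Sod3* spot lies there, and with a fitted smooth place effect removed its difference was 2.63 (adjusted p = 0.0156). None of the 13 ligand spots lies there. The place effect fitted at their spots ran from −0.16 at *Cxcl10* to 1.27 at the second *Cxcl9* spot. It was fitted before normalization between arrays and so includes differences in brightness between whole arrays. Its sign alone therefore does not give the direction in which place shifted a normalized difference. At *Cxcl16* the fitted value was 0.19, yet its removal moved the difference from −2.47 to −2.23. Position-adjusted values are given below for the ligand probes above background and for some genes of the lists. All arrays were on 1 slide, with the 1G11-SOD3 arrays in its row 1 and the 1G11-mock arrays in its row 2, so slide row and line cannot be told apart.

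**Figure D1:**
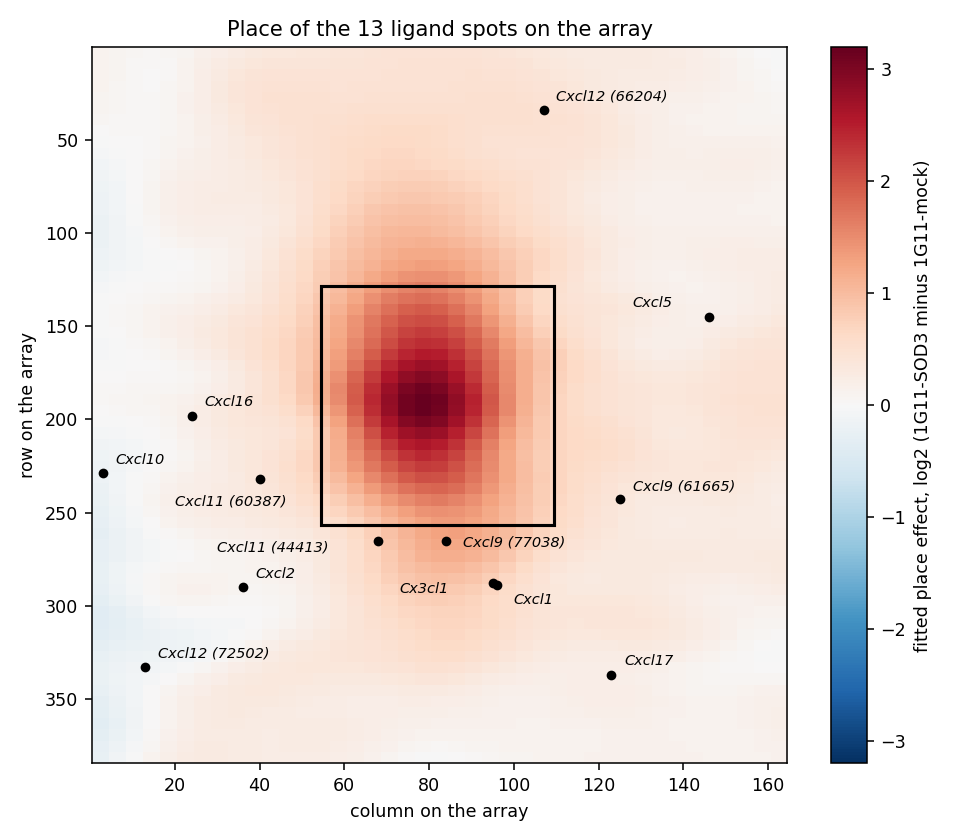
Place of the 13 ligand spots (black points, italic gene names, end of the probe name where a gene has 2 probes) by column and row on the array. The colour is the fitted place effect (log2, 1G11-SOD3 minus 1G11-mock, before normalization between arrays). The box marks the middle of the array, which holds 0 of the 13 spots, and 1 probe each of *Cxcl11* and *Cxcl9* lies just below it.

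Of the 12 endothelial marker genes fixed for the check of the label, *Kdr*, *Eng*, *Vwf* and *Esam* were above background on all 6 arrays, while *Cdh5*, *Tek*, *Tie1*, *Emcn*, *Erg* and *Robo4* were above it on none. *Pecam1* was above background on 2 arrays of each line. *Vwf*, the von Willebrand factor, fell by 1.65 on the log2 scale in 1G11-SOD3 cells (limma adjusted p = 0.0034). Of the leukocyte markers, *Cd3e* was above background on all arrays, and *Ptprc*, *Cd68*, *Adgre1* and *Lyz2* were on none. None of the 4 epithelial markers was above background on all arrays. *Cdh1* was above it on 3 1G11-SOD3 arrays and 1 1G11-mock array, with 3 of its averaged spots in the middle. *Krt8* was above it on 1 1G11-SOD3 array, and *Epcam* and *Krt18* on none.

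Across the ligands, 5 of 13 probes were called, against a background of 2.93% of all probes. By direction, 2 probes of 1 gene were higher (1.87% of all probes) and 3 probes of 3 genes were lower (1.06%). On 6 of the 13 probes the lines did not overlap, which held for 20.7% of all probes. The median log2 difference was −0.30 over the 13 ligand probes and −0.03 over all probes. All 13 ligand probes lay outside the middle, and of the 49236 probes there 1.83% were called, 0.644% higher and 1.18% lower, and 19.6% did not overlap. The 5 called ligand probes were also above background on all 6 arrays. Of the 15107 such probes outside the middle 4.48% were called, 1.22% higher and 3.26% lower, and 28.8% did not overlap.

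**Figure D2:**
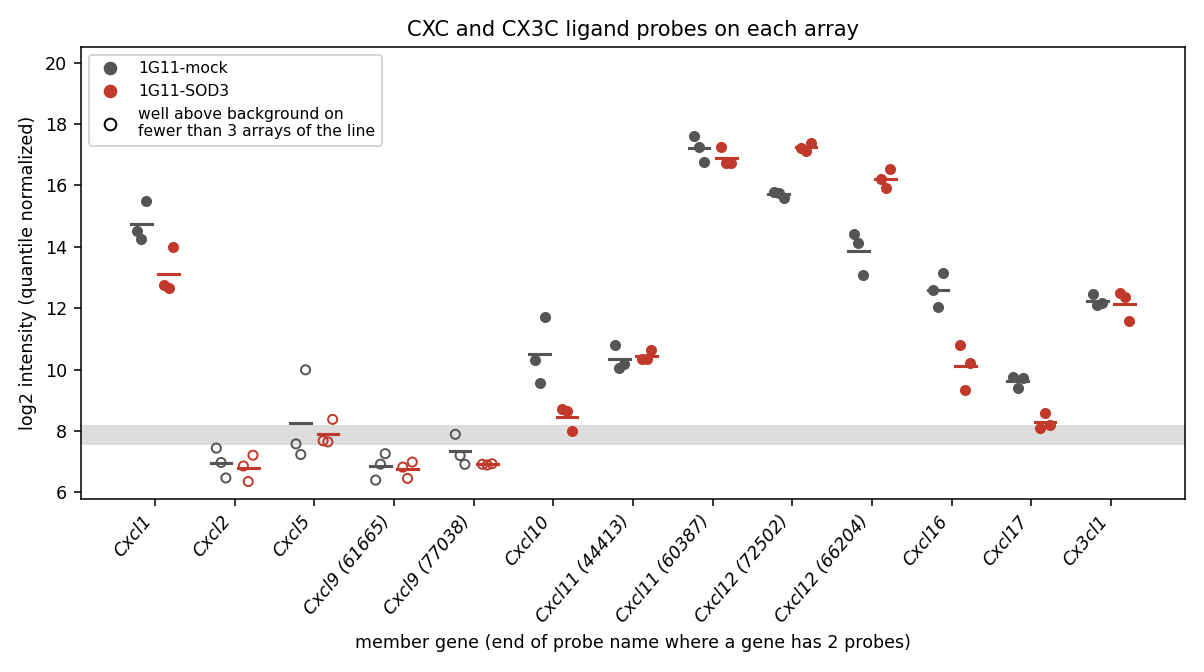
Log2 intensity (vertical axis, quantile normalized) of the 13 ligand probes on each of the 3 1G11-mock (grey) and 3 1G11-SOD3 (red) arrays, with a bar at each mean; open points mark probes above background on fewer than 3 arrays of the line, and the grey band spans the lowest signals above background, 7.56 to 8.17. *Cxcl12* lies higher on all 3 1G11-SOD3 arrays, and *Cxcl16*, *Cxcl10*, *Cxcl17* and *Cxcl1* lie lower without overlap.

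*Cxcl12*, which encodes the ligand that holds and guides CXCR4-bearing cells, was the one ligand gene that rose. It was measured at 2 places of the gene, by a probe designed on transcript variant 1 (chromosome 6, 117125026 to 117125085 in the coordinates of the array annotation, whose build is not given in the sources used here) and a probe designed on variant 3 (117131227 to 117131286). The first 30 bases of each probe are shown because the probes were designed on different transcript variants and share no stretch of 20 bases. They are given in array orientation, 5′ to 3′.
Cxcl12, variant 1: gctgtaaacctcctaccgtatgtgggaatt
Cxcl12, variant 3: aggagaaggcagcttcctatatgcagcgtg
The variant 1 probe was at 14.40, 14.11 and 13.10 on the 1G11-mock arrays (13.87 ± 0.69, SD, n = 3) and at 16.20, 15.91 and 16.54 on the 1G11-SOD3 arrays (16.22 ± 0.32, n = 3). The lowest 1G11-SOD3 array stood above the highest 1G11-mock array, and 1G11-mock replicate 3 lay below the other two. The difference was 2.34 on the log2 scale (95% interval 1.61 to 3.07, SE 0.33), a 5.08-fold change with a limma adjusted p of 0.0035.

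The variant 3 probe was at 15.80, 15.76 and 15.58 in 1G11-mock (15.71 ± 0.12) and at 17.21, 17.13 and 17.40 in 1G11-SOD3 cells (17.25 ± 0.14). The arrays of each line lay close together and the lines were well apart. This probe rose by 1.53 (95% interval 1.06 to 2.01, SE 0.22), a 2.90-fold change (limma adjusted p = 0.0034). With the place effect removed, the differences were 2.26 and 2.04 for the variant 1 and variant 3 probes, both called. Both probes were also called whichever array was left out, at 1.95 to 2.62 and 1.46 to 1.59. Whether each probe reads only the variant it was designed on, and whether the variants changed to different degrees, was not tested.

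Some genes of mesenchymal and mural cells moved with *Cxcl12*. Of the 5 markers fixed for these cells, 3 were called higher in 1G11-SOD3 cells and none lower, against 2.14% and 1.27% of all genes by their brightest probe, with *Pdgfrb*, a receptor for platelet-derived growth factor, at 2.39, *Col1a1*, a chain of type I collagen, at 3.10 and *Acta2*, smooth muscle actin, at 3.01 (limma adjusted p = 0.00036, 0.0015 and 0.00039). *Pdgfrb* was above background on only 1 of the 3 1G11-mock arrays, so its difference is set against values near background, and 3 of the spots averaged for *Acta2* lie in the middle of the array. *Pdgfra* was above background on all arrays at a difference of 0.52 (adjusted p = 0.296), and *Cspg4* on 1 array. The log2 of the summed level of the list was 12.02 to 12.87 on the 1G11-mock arrays and 14.83 to 15.20 on the 1G11-SOD3 arrays. All 3 called markers remained called with the place effect removed, *Pdgfrb* at 2.35, *Col1a1* at 2.47 and *Acta2* at 2.59. Their part in the *Cxcl12* difference was not tested, and a different share of cells and a different level per cell cannot be told apart in these RNA samples.

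*Cxcl16* and *Cx3cl1* encode the transmembrane ligands of CXCR6 and CX3CR1, and only *Cxcl16* differed. Its probe (chromosome 11, 70267780 to 70267839) starts as follows.
Cxcl16: tgtaaagttctaggttcaaccctcccacta
*Cxcl16* was at 12.59, 12.03 and 13.14 in 1G11-mock (12.59 ± 0.56) and at 10.81, 9.34 and 10.21 in 1G11-SOD3 cells (10.12 ± 0.74). The lines did not overlap, although the arrays of a line spread by over 1 log2 unit. The level fell by 2.47 (95% interval −3.30 to −1.63, SE 0.38), a 5.52-fold difference with a limma adjusted p of 0.0055. It was −2.23 with the place effect removed (adjusted p = 0.0044), and between −2.78 and −2.06, called each time, with 1 array left out.

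*Cx3cl1* was at 12.48, 12.09 and 12.16 in 1G11-mock and at 12.49, 12.36 and 11.60 in 1G11-SOD3 cells. The lines overlapped, and the lowest value was that of 1G11-SOD3 replicate 3. The difference was −0.09 (95% interval −0.70 to 0.51, limma adjusted p = 0.918), so the interval holds no change as large as 2-fold in either direction. With the place effect removed, which is 0.73 at its spot, the difference was −0.39 (adjusted p = 0.440).

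Among the interferon-inducible CXCR3 ligands, *Cxcl10* was called lower, *Cxcl11* overlapped between the lines and *Cxcl9* was not above background. *Cxcl10* was at 10.31, 9.55 and 11.71 in 1G11-mock (10.52 ± 1.09) and at 8.71, 8.66 and 8.0 in 1G11-SOD3 cells (8.45 ± 0.40). All 3 1G11-SOD3 arrays lay below all 1G11-mock arrays and near the lower end of the measurable range, while the 1G11-mock arrays differed among themselves by over 2 log2 units. The difference was −2.07 (95% interval −3.06 to −1.08, SE 0.45), or 4.19-fold (limma adjusted p = 0.0321). It was called under 12 of 14 other ways of processing all arrays. The exceptions were removal of the place effect, at −1.45 (adjusted p = 0.0837), and no background correction, at −1.73 (adjusted p = 0.103). With 1 array left out it was called in 2 of 6 fits, without 1G11-mock replicate 2 (−2.60) or 3 (−1.51). Leaving out 1G11-mock replicate 1 gave −2.19 (adjusted p = 0.0593), and leaving out replicate 1, 2 or 3 of 1G11-SOD3 gave −2.17, −2.15 and −1.81 (adjusted p = 0.0718, 0.0548 and 0.149), all past 2-fold but not called.

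*Cxcl11* was read by 2 probes that lie next to each other in the gene on chromosome 5 (92788567 to 92788626 and 92788640 to 92788699). RefSeq lists the C57BL/6J gene as a transcribed pseudogene. One of the probes is shown because part of it is repeated elsewhere. Capitals mark the bases that lie in a stretch of at least 20 bases shared with a RefSeq promoter (GRCm38.p6).
Cxcl11, probe at 92788567: agaccaGGAGTTTCAGGACAGCCAGGGCTA
In the whole probe, 38 of 60 bases lie in such stretches, shared with 22 of 32851 promoters and with 7 other probes. Sharing with at least 10 promoters was found for 0.587% of all probes, and the other 12 ligand probes shared no such stretch. The search counted only exact matches, so it does not show that those probes are specific. How much of the signal of either *Cxcl11* probe comes from other transcripts was not tested. The probe at 92788567 was at 17.60, 17.26 and 16.76 in 1G11-mock and at 17.25, 16.75 and 16.73 in 1G11-SOD3 cells, which overlap. Its difference was −0.30 (95% interval −0.90 to 0.30, limma adjusted p = 0.680). The other probe was at 10.80, 10.05 and 10.19 against 10.34, 10.34 and 10.66, with a difference of 0.10 (95% interval −0.46 to 0.66, adjusted p = 0.906). Neither probe was called.

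The first *Cxcl9* probe (chromosome 5, 92752191 to 92752250) was at 6.40, 6.92 and 7.26 in 1G11-mock and at 6.82, 6.46 and 6.99 in 1G11-SOD3 cells. The second (92752796 to 92752855) was at 7.89, 7.20 and 6.92 against 6.92, 6.89 and 6.94. Neither was well above background on any array, so no fold is given.

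*Cxcl1*, *Cxcl2* and *Cxcl5* encode ELR ligands of CXCR2, the neutrophil attractants. *Cxcl1* was at 14.51, 14.26 and 15.49 in 1G11-mock (14.75 ± 0.65) and at 12.76, 12.65 and 13.98 in 1G11-SOD3 cells (13.13 ± 0.74). The lines did not overlap, but the highest 1G11-SOD3 array, replicate 3, lay just below the lowest 1G11-mock array. The difference was −1.62 (95% interval −2.50 to −0.75, SE 0.40), or 3.08-fold, with a limma adjusted p of 0.0531. Replicate 3 was the highest array of its own line in both lines. With the replicate number as a block, the difference was the same with an SE of 0.22 and an adjusted p of 0.0021. Same-numbered arrays share a slide column, so replicate and place cannot be told apart in that block. With the place effect removed it was −1.91 (adjusted p = 0.0379).

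*Cxcl5* was at 7.58, 7.24 and 9.99 in 1G11-mock and at 7.68, 7.65 and 8.38 in 1G11-SOD3 cells. In each line only replicate 3 was above background, and the lines overlapped (difference −0.37, 95% interval −1.63 to 0.90, limma adjusted p = 0.829). Most of these values lie near background, and without 1G11-mock replicate 3 the sign turned (0.52). *Cxcl2* was at 7.44, 6.98 and 6.47 against 6.86, 6.36 and 7.21, below the range of signals above background on every array.

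*Cxcl17*, a ligand known from mucosal tissues, was above background on all arrays (chromosome 7, 26185079 to 26185138). It was at 9.75, 9.41 and 9.73 in 1G11-mock (9.63 ± 0.19) and at 8.11, 8.59 and 8.21 in 1G11-SOD3 cells (8.30 ± 0.26). The lines were well apart and the spread within each was small, with the 1G11-SOD3 arrays close to the lower end of the measurable range. It fell by 1.33 (95% interval −1.84 to −0.81, SE 0.23), a 2.51-fold difference (limma adjusted p = 0.0113). It was called under 13 of 14 other ways of processing, the exception being removal of the place effect (−0.95, adjusted p = 0.0645). Without 1G11-SOD3 replicate 1 or 3 it was −1.22 or −1.24 (adjusted p = 0.0591 or 0.0582), and the other 4 fits with an array left out kept the call.

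**Figure D3:**
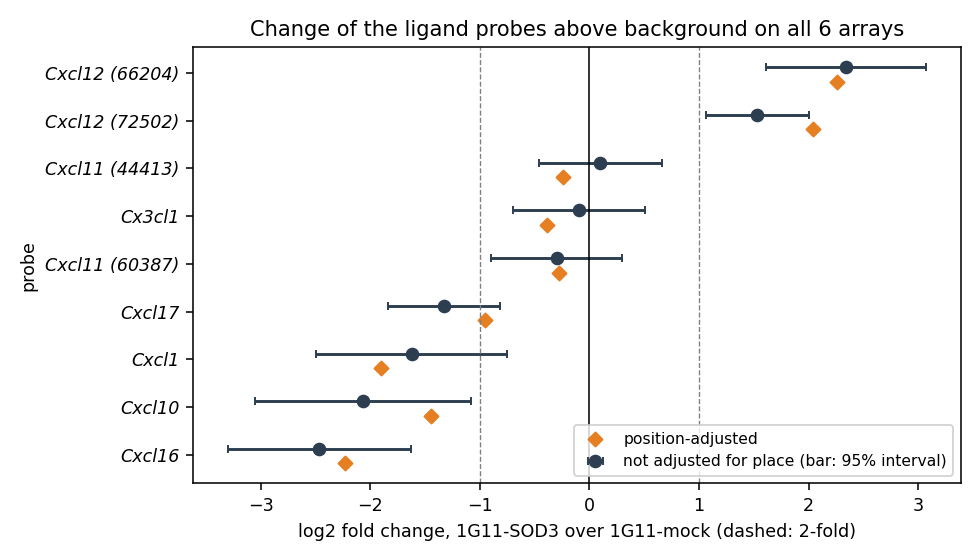
Log2 fold change (horizontal axis, 1G11-SOD3 over 1G11-mock) of the 9 ligand probes above background on all 6 arrays, with the 95% interval (bars) and the position-adjusted value (diamonds); dashed lines mark 2-fold. Both *Cxcl12* probes lie above the upper line with and without the adjustment, and *Cxcl16* is the lowest at −2.47.

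The spread within a line was shared by several of the ligands. On the 1G11-mock arrays, *Cxcl1*, *Cxcl5*, *Cxcl10* and *Cxcl16* were each highest on replicate 3 and lowest on replicate 2, and both *Cxcl12* probes were lowest on replicate 3. *Cxcl17*, *Cx3cl1* and both *Cxcl11* probes were instead highest on replicate 1. *Cxcl5* was above background only on replicate 3 of each line, so the order of its other arrays is uncertain. On the 1G11-SOD3 arrays *Cxcl1* and *Cxcl5* had the same order, while *Cxcl10* was lowest on replicate 3 and *Cxcl16* was highest on replicate 1. *Sod3* was lowest on replicate 3 among the 1G11-mock arrays. These orders rest on 3 arrays a line and were not tested.

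RefSeq promoters (GRCm38.p6, 250 bases before the start) were at hand for 6 of the 10 genes, *Cxcl1*, *Cxcl2*, *Cxcl9*, *Cxcl10*, *Cxcl12* and *Cx3cl1*, and were searched on both strands for the NF-κB motif, for the interferon-stimulated response element (GAAA, any 2 bases, GAAA) and for the gamma-activated site written as TTCNNNGAA. The windows that held a match are shown 5′ to 3′ on the strand of the gene, with matched bases in capitals. They are chr5:90891135-90891214 (plus strand) for *Cxcl1*, chr5:90903769-90903848 (plus strand) for *Cxcl2* and chr5:92348970-92349119 (minus strand) for *Cxcl10*.
Cxcl1: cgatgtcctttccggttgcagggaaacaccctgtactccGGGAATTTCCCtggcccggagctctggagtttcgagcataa
Cxcl2: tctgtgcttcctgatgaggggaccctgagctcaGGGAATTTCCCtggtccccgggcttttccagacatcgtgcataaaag
Cxcl10: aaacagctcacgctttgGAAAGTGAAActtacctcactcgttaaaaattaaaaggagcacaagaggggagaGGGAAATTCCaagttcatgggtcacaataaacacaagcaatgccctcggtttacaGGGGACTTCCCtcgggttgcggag
*Cxcl1* and *Cxcl2* held the same NF-κB match, from −71 to −62 and from −97 to −88 relative to the start, each with an overlapping match on the other strand. *Cxcl10* held NF-κB matches from −159 to −150 and from −104 to −94, the latter made of 2 overlapping matches, and the interferon-stimulated element from −213 to −204. No promoter of the 6 held the gamma-activated site, and those of *Cxcl9*, *Cxcl12* and *Cx3cl1* held none of the motifs in this window. Over all 32851 promoters the NF-κB motif was found in 7.25%, the interferon-stimulated element in 2.98% and the gamma-activated site in 7.02%. Of the ligands with a match, *Cxcl10* was called lower, a call lost with the place effect removed, *Cxcl1* was not called (adjusted p = 0.0531) and *Cxcl2* was not above background. A match of letters is a description, and binding was not measured.

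Genes of NF-κB and interferon signalling were taken as lists of related genes, each gene by its brightest probe. Whether they act on these promoters was not tested. By brightest probe, 3.41% of all genes were called (2.14% higher and 1.27% lower). Of 10 NF-κB subunits and feedback inhibitors, 4 were called lower and none higher, all 10 values were below 0, and the median was −0.93, against −0.03 over all probes. The 4 encode A20 and members of the IκB family, feedback genes known to be induced by NF-κB. *Tnfaip3*, which encodes the A20 protein, was at 11.93, 11.12 and 12.16 in 1G11-mock and at 9.79, 9.25 and 9.31 in 1G11-SOD3 cells. The lines did not overlap, at a difference of −2.29 (SE 0.30, limma adjusted p = 0.0023). *Nfkbia*, the gene of IκBα, was at 15.82, 15.72 and 15.99 against 14.18, 14.57 and 14.91, also without overlap (difference −1.29, SE 0.25, adjusted p = 0.0173). *Nfkbie* differed by −1.73 (adjusted p = 0.0040) and *Nfkbiz*, above background on 2 of the 3 1G11-SOD3 arrays, by −2.07 (adjusted p = 0.0098). All 4 remained called with the place effect removed. None of the subunit genes passed the threshold on its brightest probe. The probes of *Relb* disagreed, at −1.12 (adjusted p = 0.136) on the brightest and at −1.52 (adjusted p = 0.0144), which was called, on the other.

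Of 13 interferon receptors and factors, 2 were called in each direction and the median was −0.51. *Ifnar1* and *Ifnar2*, the chains of the type I interferon receptor, were called higher at 2.83 and 3.26 (limma adjusted p = 0.0044 and 0.0034), but both spots are in the middle of the array. The other probes of *Ifnar1*, outside the middle, were not called, at 0.16 and 0.82 (adjusted p = 0.884 and 0.0982), the second near background. With the place effect removed they were at 0.45 and 0.98 and were not called (adjusted p = 0.299 and 0.0687). *Irf7*, a transcription factor of the interferon response, was lower by 1.53 (adjusted p = 0.0321) and also after removal of the place effect (−1.70, adjusted p = 0.0133). *Tyk2*, a kinase of the interferon receptors, was at −1.18 (adjusted p = 0.0445) and then at −0.88 (adjusted p = 0.0959).

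**Figure D4:**
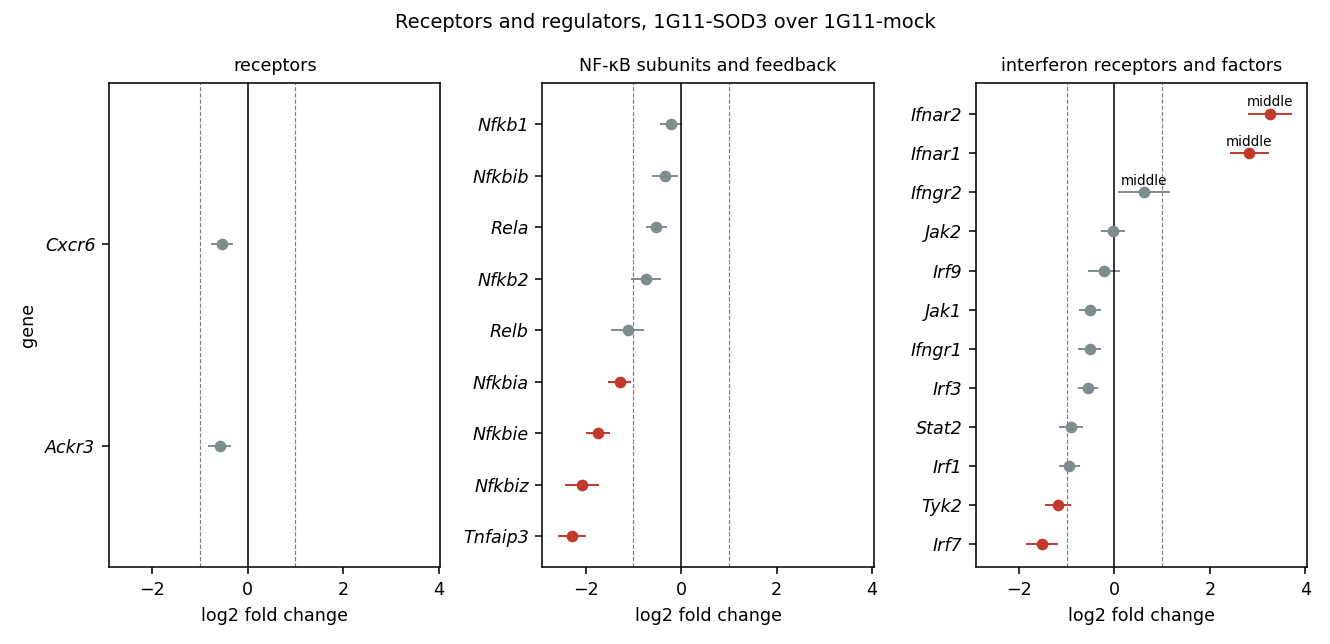
Log2 fold change (1G11-SOD3 over 1G11-mock, horizontal axis, bars are the SE) of the receptors, NF-κB genes and interferon genes above background on at least 1 array, with called genes in red, dashed lines at 2-fold and genes with a spot in the middle marked. All NF-κB genes lie below 0, and the 2 genes called higher, *Ifnar1* and *Ifnar2*, lie in the middle.

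Of the 9 receptor genes, *Cxcr6*, the receptor of CXCL16, and *Ackr3*, the scavenging receptor of CXCL11 and CXCL12, were above background on all arrays and the other 7 on none. *Cxcr6* was at 8.89, 8.63 and 8.91 against 8.45, 8.23 and 8.13 (difference −0.54, limma adjusted p = 0.287), and *Ackr3* at 14.48, 14.70 and 15.13 against 14.11, 14.07 and 14.36 (difference −0.59, adjusted p = 0.288). Neither overlapped between the lines, and neither was called. With the place effect removed, the *Cxcr6* difference changed sign to 0.21 and that of *Ackr3* was −0.38 (limma adjusted p = 0.634 and 0.383). *Cxcr2*, *Cxcr3*, *Cxcr4* and *Cx3cr1* were above background on no array. One of them, *Cxcr2*, passed the test at values of 8.03, 7.47 and 7.32 against 6.38, 6.45 and 6.62, and no fold is given for it. *Adam10*, a protease that sheds CXCL16 and CX3CL1, was at −0.09 (adjusted p = 0.935), and *Adam17*, the other shedding protease, was above background on no array. Of the 3 processing enzymes none was called.

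Of 7 other chemokine ligands of the CXC and related types, none was above background on all arrays, and 2 passed the test, both higher. *Cxcl15*, known from the lung, was above background on the 3 1G11-SOD3 arrays (11.87, 10.95 and 12.98) and on no 1G11-mock array (8.16, 6.64 and 7.81), and passed the test (limma adjusted p = 0.00094). Its spot is in the middle, where the fitted place effect is 2.73 on the log2 scale. With that effect removed *Cxcl15* still passed the test (limma adjusted p = 0.0199). Its 1G11-mock values are not above background, where the adjustment is uncertain, and no fold is given. *Cxcl14* was at 6.81, 7.16 and 6.52 against 8.11, 7.95 and 8.14 and passed the test (adjusted p = 0.0175). It also passed with the place effect removed (limma adjusted p = 0.0045). But it was above background on only 1 1G11-SOD3 array, at the edge of the measurable range, and no fold is given.

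The genes whose levels followed *Cxcl10* most closely over the 6 arrays, among 15028 probes outside the ligands, above background on all arrays and outside the middle, were *Elf2* (Pearson r 0.996), *Mterf1a* (0.993) and *Tanc1* (0.993). Their own differences between the lines were smaller, at −0.59, −0.69 and −0.69 on the log2 scale, and none was called. With 6 arrays in 2 lines these correlations are a description.

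**Figure D5:**
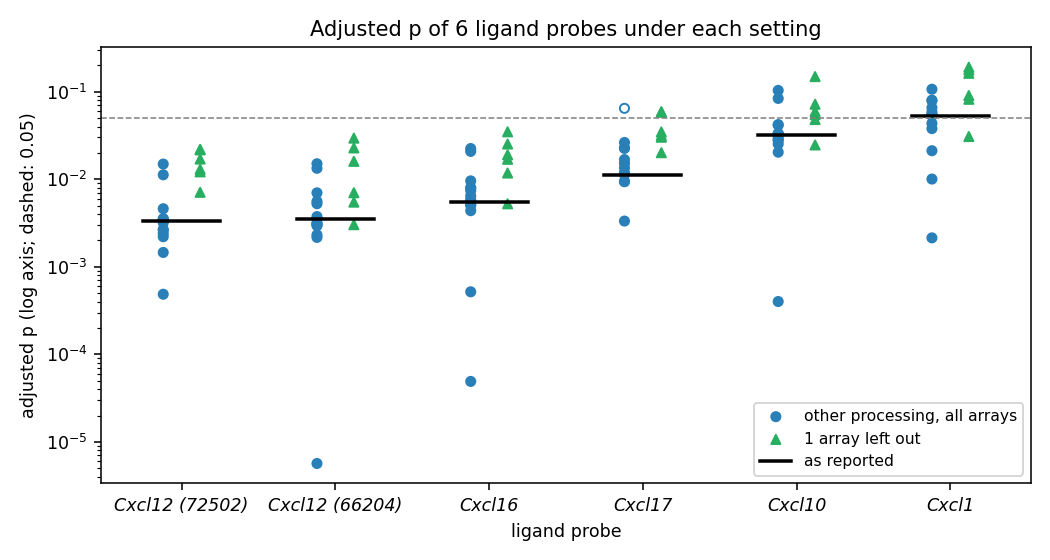
Adjusted p (vertical log axis, dashed line at 0.05) of the 6 ligand probes whose lines did not overlap, as reported (bar), under 14 other ways of processing all arrays (circles, open where the change was under 2-fold) and with 1 of the 6 arrays left out (triangles). Both *Cxcl12* probes and *Cxcl16* stay below the line under every setting, and *Cxcl17*, *Cxcl10* and *Cxcl1* cross it under some.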

How the data were processed

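RNA of 3 1G11-mock and 3 1G11-SOD3 cultures had been hybridised to one-color Agilent SurePrint Mouse G3 arrays. For each array the authors deposited Feature Extraction 10.7.3.1 output with the mean and median pixel intensity, local background and processed signal of each spot, together with their own log2 table, normexp corrected and quantile normalized. That deposited log2 table was matched to within 0.005 from the median pixel intensity with control spots kept, which is not the setting of the values printed here.

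Here the mean intensity was corrected by normexp with the local background median (offset 50), control and outlier spots were removed, the log2 values were quantile normalized, and spots of a probe were averaged. The lines were compared by limma 3.58.1 in R 4.3.3 over all 55681 probes (two-sided, Benjamini-Hochberg). In data simulated from the means and spreads of these arrays, 64 of 100 probes shifted by 2 log2 units were called. For a shift of 3 it was 90 of 100, and smaller shifts were not simulated. The place effect was fitted per array with mgcv 1.9-3 as a smooth surface over the bright spots. It was removed as an alternative and lowered the SD between copies of probes printed 10 times from 0.307 to 0.138 (median of 192 probes). Since it was fitted to bright spots, its values for probes near background are uncertain, and counts over all probes under it include dim probes. Other steps used Python 3.11.15 with pandas 2.3.3, numpy 2.4.6 and, for plots, matplotlib 3.10.9.

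Same-numbered arrays of the lines shared a replicate number and a slide column. Their deviations from the line means correlated at 0.165, 0.103 and 0.157 over 16362 probes. With the place effect removed these correlations were 0.079, 0.137 and 0.238. The pair of 1G11-mock replicate 2 and 1G11-SOD3 replicate 1, which share no number, then stood at 0.169, so the pairing is uncertain. The main comparison did not pair the arrays, and the replicate number entered as a block only in an alternative fit. The precision of every value is limited by 3 arrays a line, for which an exact permutation test without pairing cannot go below p = 0.1. The members, the gene lists and the rule for named genes (all members, called genes of the lists, the members' receptors, Adam10, Adam17, *Sod3* and the 3 genes most like *Cxcl10*) were chosen with earlier results of these data known. Alternatives were other background corrections and normalizations, the deposited table, the replicate block, spots or probes left out, and each array left out. Some genes of the lists are not reported here by name.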

Additional observations from a re-analysis of the deposited data

How the results depend on the processing

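The number of ligand probes called higher was 2 under every setting tried. The number called lower was 3. It was 2 without background correction and 4 with scaling to the 75th percentile, with the replicate block or with dim probes left out. With Agilent's processed signal at a common 75th percentile it was 6, with 9918 of all probes called lower. The 6 include both *Cxcl9* probes, which were above background on no array. With the place effect removed the 3 were *Cxcl1*, *Cxcl16* and the second *Cxcl9* probe. With 1 array left out the number lay between 1 and 3, lowest without 1G11-SOD3 replicate 1. The related genes were 7 other ligands, 9 receptors, 3 processing enzymes, 10 NF-κB genes and 13 interferon genes. Of them, 4 were called higher and 7 lower, against 2.14% and 1.27% of all genes. The 4 became 1 without the spots of the middle, 2 with the place effect removed and 3 to 4 with 1 array left out. Over all probes, 1040 were called higher, 412 without the middle and 665 with the place effect removed. The 7 called lower became 4 without background correction and 3 to 5 with 1 array left out. Over all probes, 589 were called lower, and 401 without background correction. *Sod3* lay between 3.17 and 5.06 with 1 array left out, and without 1G11-SOD3 replicate 3 it missed the threshold (4.32, limma adjusted p = 0.0511). The replicate block turned the *Cxcl1* difference of −1.62 into a call (adjusted p = 0.0021) and changed no other ligand's call. *Cxcl1* was also called with the processed signal (−2.02), with scaling to the 75th percentile (−1.48), with dim probes left out and without 1G11-SOD3 replicate 3 (−2.08).

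Differences near 0 changed sign. *Cxcl5* was between −0.90 and 0.52 with 1 array left out, above 0 without 1G11-mock replicate 3, from values mostly near background. The *Cxcl11* probe at 0.10 was at −0.47 with the processed signal, −0.24 with the place effect removed, and −0.049 to 0.33 with 1 array left out (below 0 without 1G11-mock replicate 2, and at −0.0078 without 1G11-SOD3 replicate 3). *Cx3cl1* was at 0.11 with scaling to the 75th percentile, 0.040 with cyclic loess, 0.065 with the middle left out, and −0.26 to 0.18 with 1 array left out (above 0 without 1G11-mock replicate 1 or 1G11-SOD3 replicate 3). Scaling shifted the median of all probes to −0.33 with the 75th percentile and to −0.52 with the processed signal. Of all calls, 63.8% were higher, against 10.8% with the processed signal, 53.6% with the middle left out and 28.1% with the place effect removed. The last counts dim probes too, for which that adjustment is uncertain.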
